A study of Mus musculus with 60 samples.

Results

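Chac1 was followed as a single gene across every treatment of a mouse embryonic stem cell exposure series. The array annotation gives this symbol to 1 probe set, 10474972, out of 21789 probe sets that carry a single gene symbol, in a table of 35556, and no probe set with several symbols names it. Those probe sets stand for 19938 gene symbols, of which Chac1 is 1. The gene was chosen on its log2 signal in these same arrays, where it stood among the probe sets that differed most between compounds and DMSO. Its levels, its differences from DMSO and its correlations are therefore given as a description, with no test.

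Chac1 encodes a cytosolic gamma-glutamylcyclotransferase, an enzyme that cleaves glutathione into 5-oxoproline and the dipeptide cysteinylglycine. Its transcript is a known target of the integrated stress response, in which kinases that sense amino acid shortage, unfolded protein, haem shortage or double-stranded RNA phosphorylate the translation factor eIF2. The transcription factor ATF4 is then translated and, together with its partners ATF3 and CHOP (gene Ddit3), switches on enzymes, transporters and feedback inhibitors. Work in mouse has also described CHAC1 as an inhibitor of the maturation of Notch receptors. Its paralog Chac2 encodes a slower enzyme with the same activity that is regarded as constitutively expressed.

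R1 is an established line of mouse embryonic stem cells. The cells, freed of feeder cells and still undifferentiated, had been exposed for 6 h before total RNA was hybridised to Affymetrix mouse gene arrays, and 60 arrays form 20 groups of 3. Per the labels, 19 groups received a compound and 1 the solvent alone. The labels call 10 compounds teratogens and 9 non-teratogens, and they say that the arrays are triplicates but not that these came from separate cultures.

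The teratogen groups were (-)-d-penicillamine, Dimethadione, Fluconazole, Topiramate and VPA (valproic acid) at 1 mM, (+/-)-Thalidomide at 0.35 mM, All trans retinoic acid at 0.024 mM, Dexamethazone at 0.1 mM, Methotrexate at 0.028 µM and 5-azacytidine. For 5-azacytidine the titles give 0.23 µM and the characteristics 23 µM. The non-teratogen groups were Chlorthalidone, Hydrochlorothiazide, Paracetamol and Sulfasalazine at 1 mM, Loratadine at 0.043 mM, Clozapine at 0.028 mM, Glybenclamide at 0.37 mM, Metoclopramide at 0.17 mM and Ondansetron at 0.054 mM. The solvent group received 0.1% DMSO, and its 3 arrays are the control shared by every comparison. For 9 compounds the labels cite the concentration that lowered viability by 10% in a 24 h assay. These were Loratadine, Glybenclamide, Ondansetron, Clozapine, Metoclopramide, All trans retinoic acid, Dexamethazone, Methotrexate and 5-azacytidine. Every group is 1 cell line at 1 time and 1 concentration, so no dose or time course of Chac1 exists in these data.

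The arrays carried the signals of embryonic stem cells: all 10 markers of that state on a list that includes Pou5f1, Nanog and Sox2 had mean log2 signals of 10.31 to 13.57, where the median probe set had 8.09. The mean of 9 fibroblast markers, which feeder cells would bring, lay between 7.83 and 8.16 on every array, with 7.87 to 7.97 in Loratadine and 7.91 to 8.01 in DMSO. This average covers unlike members: their mean log2 signals ran from 4.50 to 10.08, and 5 of the 9 lay above the median probe set. Titles of 8 arrays in 6 compound groups, none of them DMSO, carry a letter b whose meaning is not given in the sources used here. In 7 of those 8 arrays Chac1 lay below the mean of its own group. With the letter as a covariate the log2 fold change of Chac1 was 1.62 for Loratadine, 0.57 for All trans retinoic acid and 0.56 for Dexamethazone, in place of 1.55, 0.51 and 0.49. For (+/-)-Thalidomide, Fluconazole and 5-azacytidine it was 0.20, 0.53 and 0.13, in place of 0.07, 0.41 and 0.06.

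Because the genes that moved most like Chac1 include several known ATF4 targets, the start of the Chac1 gene is shown first, with the promoters of 4 of the 12 most similar genes that also hold a C/EBP-ATF element. Sequences are from RefSeq, build GRCm38.p6, and run 5′ to 3′ on the strand of the gene, from 250 bases before its start to 50 after. Capitals mark matches, on either strand, to TGATGNAA, the form of the element bound by dimers of ATF4 with C/EBP factors, or to TGACGNAA, a variant of it that was added after the Chac1 promoter had been read. Chac1 is shown from chr2:119350992-119351291 (plus strand), Herpud1 from chr8:94386179-94386478 (plus), Slc1a4 from chr11:20332664-20332963 (minus), Pck2 from chr14:55540016-55540315 (plus) and Trib3 from chr2:152344011-152344310 (minus).
Chac1: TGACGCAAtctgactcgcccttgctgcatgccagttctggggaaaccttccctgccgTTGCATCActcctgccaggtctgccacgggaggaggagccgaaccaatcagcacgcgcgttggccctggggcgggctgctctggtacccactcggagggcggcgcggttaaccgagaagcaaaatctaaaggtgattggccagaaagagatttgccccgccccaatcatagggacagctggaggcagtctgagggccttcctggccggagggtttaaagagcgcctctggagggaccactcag
Herpud1: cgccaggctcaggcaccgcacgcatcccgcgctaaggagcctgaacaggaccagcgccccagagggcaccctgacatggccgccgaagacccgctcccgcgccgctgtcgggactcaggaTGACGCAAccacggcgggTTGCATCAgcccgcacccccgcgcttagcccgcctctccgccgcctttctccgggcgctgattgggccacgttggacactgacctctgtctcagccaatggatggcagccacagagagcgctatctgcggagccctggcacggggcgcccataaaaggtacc
Slc1a4: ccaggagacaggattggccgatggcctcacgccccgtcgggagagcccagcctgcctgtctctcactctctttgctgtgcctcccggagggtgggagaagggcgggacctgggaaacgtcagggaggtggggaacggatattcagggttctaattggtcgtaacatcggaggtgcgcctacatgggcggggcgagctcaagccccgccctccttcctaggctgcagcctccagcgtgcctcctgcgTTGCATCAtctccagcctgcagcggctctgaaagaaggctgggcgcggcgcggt
Pck2: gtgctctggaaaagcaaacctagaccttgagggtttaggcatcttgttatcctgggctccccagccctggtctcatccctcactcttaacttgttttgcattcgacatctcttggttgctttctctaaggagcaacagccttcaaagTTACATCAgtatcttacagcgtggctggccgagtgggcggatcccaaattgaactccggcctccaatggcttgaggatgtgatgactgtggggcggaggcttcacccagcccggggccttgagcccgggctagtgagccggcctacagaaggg
Trib3: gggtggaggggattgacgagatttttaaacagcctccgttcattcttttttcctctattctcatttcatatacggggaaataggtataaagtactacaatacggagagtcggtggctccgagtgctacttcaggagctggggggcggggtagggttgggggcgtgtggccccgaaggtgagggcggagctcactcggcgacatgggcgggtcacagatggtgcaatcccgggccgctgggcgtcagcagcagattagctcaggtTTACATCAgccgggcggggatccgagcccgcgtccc
In the Chac1 window TGACGCAA stands at -250 to -243 and TTGCATCA, the complement of a TGATGNAA match, at -193 to -186. The Herpud1 window holds the same pair of octamers, TGACGCAA at -130 to -123 and TTGCATCA at -112 to -105. TTGCATCA in Slc1a4 spans the start itself, from -4 to 4, while TTACATCA lies at -103 to -96 in Pck2 and at 15 to 22 in Trib3.

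A match to TGATGNAA was found in 1304 of the 32851 promoters of the table, 3.97%. TGACGNAA was in 521 (1.59%), and both together were in 25 (0.0761%). Of the 12 genes most like Chac1, 11 had a promoter in the table under their array symbol, and 4 of these (36.4%) held TGATGNAA. So did 8 of 22 genes of the amino acid response (36.4%) and 3 of 15 stress response regulators (20.0%). In all, 1219 of 27025 genes did (4.51%). The cyclic AMP element TGACGTCA, in 1.79% of promoters, was not among the letters of the Chac1 window, nor was CCAAT followed after 9 bases by CCACG, the ATF6 element, which was in 0.119%. The promoter of Chac2 held none of these motifs. These matches describe letters only, and the genes were grouped by their signals, not by binding.

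Chac1 was highest with Loratadine, an antihistamine, where its log2 signal was 10.56, 10.79 and 10.62 on the 3 arrays, against 8.99, 9.25 and 9.07 in DMSO. The groups lay far apart: the lowest Loratadine array stood 1.30 above the highest DMSO array, and 19.1% of all probe sets had all 3 Loratadine arrays above all 3 DMSO arrays. The mean was 10.66 ± 0.121 with Loratadine and 9.10 ± 0.137 with DMSO (SD, n = 3 each), a log2 fold change of 1.55 ± 0.084 (SE of the limma model) or 2.94-fold. Only 1 probe set of the 21789, that of Ddit3, differed more in this direction. In RNA of a whole culture, more cells with the transcript and more transcript per cell cannot be told apart.

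Sulfasalazine, an anti-inflammatory drug, gave 10.54, 10.40 and 10.49, and Chlorthalidone, a diuretic, 10.52, 10.39 and 10.41. Both groups stood 1.14 or more above the highest DMSO array. In each comparison Chac1 had the largest log2 fold change of all probe sets, 1.37 (2.59-fold) with Sulfasalazine and 1.34 (2.53-fold) with Chlorthalidone, each with an SE of 0.084. The share of probe sets with all 3 arrays above all DMSO arrays was 19.6% with Sulfasalazine and 9.99% with Chlorthalidone.

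Glybenclamide, a sulfonylurea, followed with 10.09, 9.97 and 10.04, a log2 fold change of 0.93 (1.91-fold, rank 2 of all probe sets). The antiemetic Ondansetron gave 9.68, 9.79 and 9.78, a log2 fold change of 0.65 (rank 5), and the antipsychotic Clozapine 9.59, 9.66 and 9.61, 0.52 (rank 25). None of these 3 groups overlapped DMSO, and the share of all probe sets with such a gap was 16.6% with Glybenclamide, 12.3% with Ondansetron and 10.1% with Clozapine. All 6 of the highest groups carry the label non-teratogen.

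All trans retinoic acid gave 9.82, 9.34 and 9.68 and Dexamethazone, a glucocorticoid, 9.64, 9.73 and 9.42, log2 fold changes of 0.51 and 0.49. With Methotrexate (SD 0.182) these were the groups with the widest spread of Chac1: their SDs were 0.243 and 0.159, and in each of both the lowest array was one whose title carries the letter b. Without its array of 9.34 the log2 fold change of All trans retinoic acid was 0.64. All 3 arrays still stood above DMSO, as did those of 11.4% of probe sets with All trans retinoic acid and 5.55% with Dexamethazone.

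Smaller differences with tight triplicates came from compounds at 1 mM. Fluconazole, an antifungal, gave 9.50, 9.56 and 9.47, and Topiramate, an anticonvulsant, 9.46, 9.42 and 9.45, log2 fold changes of 0.41 and 0.34. VPA gave 9.39, 9.40 and 9.37 and Dimethadione 9.40, 9.40 and 9.36, both 0.28 above DMSO. All 12 of these arrays stood above every DMSO array, beside 5.87% of probe sets with Fluconazole, 8.43% with Topiramate, 23.4% with VPA and 9.78% with Dimethadione. The same difference of 0.28 had rank 124 among all probe sets with Dimethadione and rank 2004 with VPA.

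In the other 7 compound groups Chac1 lay in or near the range of DMSO. Metoclopramide, with 9.28, 9.28 and 9.30, lay just 0.03 above the highest DMSO array, a gap that 12.7% of probe sets showed in some size. Hydrochlorothiazide, with 9.35, 9.38 and 9.18, had 2 arrays above all DMSO arrays, and Methotrexate, with 9.17, 9.17 and 9.48, had 1. (+/-)-Thalidomide (9.10, 9.23 and 9.20), 5-azacytidine (9.05, 9.23 and 9.21), Paracetamol (9.13, 9.20 and 9.00) and (-)-d-penicillamine (9.03, 9.16 and 8.98) overlapped DMSO fully, with log2 fold changes of 0.07, 0.06, 0.01 and -0.05.

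**Figure D1:**
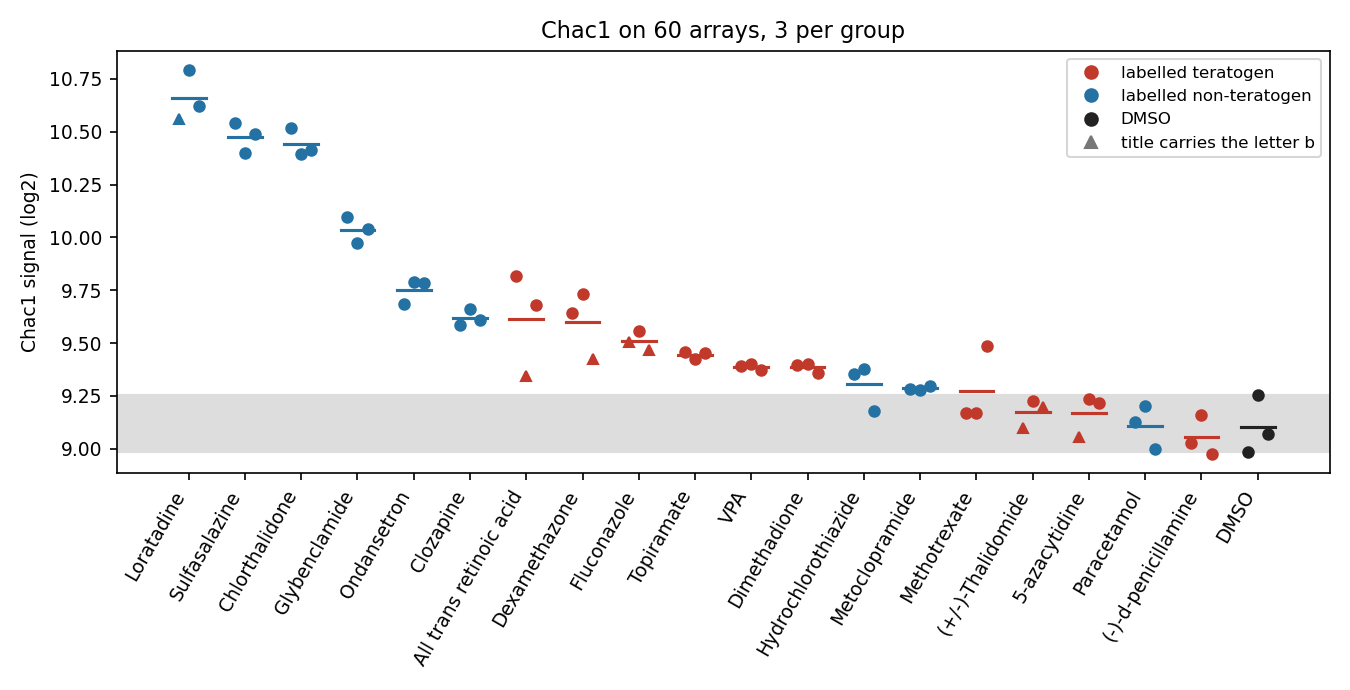
Log2 signal of Chac1 on each of the 60 arrays, with groups ordered by mean and DMSO at the right end. Points are arrays, lines are group means, colours give the label of the compound, triangles mark titles with the letter b, and the grey band is the range of the 3 DMSO arrays. A steep descent over Loratadine, Sulfasalazine, Chlorthalidone and Glybenclamide (means 10.66, 10.48, 10.44 and 10.04) passes into a slow one that ends inside the band.

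The order of the group means in the plot of Chac1 by group was separated only in part. Of 19 neighbouring pairs, 6 did not overlap: Loratadine over Sulfasalazine (0.182 between means), Chlorthalidone over Glybenclamide (0.405), Glybenclamide over Ondansetron (0.284), Ondansetron over Clozapine (0.132), Fluconazole over Topiramate, and Topiramate over VPA. Some of these gaps were small. The lowest Loratadine array was 10.56 and the highest Sulfasalazine array 10.54, and for Fluconazole over Topiramate these were 9.47 and 9.46. The share of all probe sets that separate such neighbours was not computed. Sulfasalazine and Chlorthalidone overlapped each other, as did Clozapine, All trans retinoic acid and Dexamethazone. DMSO stood in place 19 of 20, so that 18 compound means lay above it, and in 13 compounds all 3 arrays did.

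By label, the group means of the 10 teratogens ran from 9.05 to 9.61 with a median of 9.39, and those of the 9 non-teratogens from 9.11 to 10.66 with a median of 9.75. The ranges overlapped, and doses were not matched between the classes. Chlorthalidone and Hydrochlorothiazide, both sulfonamide diuretics and both at 1 mM, differed by 1.14 in mean log2 signal, 10.44 ± 0.067 with Chlorthalidone and 9.30 ± 0.109 with Hydrochlorothiazide (SD, n = 3 each). Their arrays did not overlap, and the share of all probe sets for which this held was not computed.

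Chac1 varied between groups and little within them. The SD of its signal over 60 arrays was 0.478, a value that 0.0367% of probe sets exceeded, and by the SD of the 20 group means (0.479) it held rank 7. Within groups its SD was 0.104, close to the median of all probe sets (0.0975), and 40.7% of probe sets varied more. The spread of signals on an array, its interquartile range, had a Pearson r of 0.029 with Chac1 once group means were removed and 0.242 over all 60 arrays.

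Correlation with Chac1 was computed for the other 21788 probe sets over the 60 arrays. These points share the array type, the normalisation and the 20 groups, so a high r mostly states that group means were ordered alike, and the values are descriptive. The median r was -0.081. It was 0.7 or more for 77 probe sets, 0.8 or more for 20 and 0.9 or more for 5, and -0.7 or less for 7.

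The 5 highest were Trib3 (r = 0.945), a pseudokinase that dampens ATF4 signalling, Pck2 (0.944), mitochondrial phosphoenolpyruvate carboxykinase, the transporters Slc1a4 (0.922, neutral amino acids) and Slc6a9 (0.916, glycine), and Hspb6 (0.906), a small heat shock protein. The next were Mthfd2 (0.884), of mitochondrial folate metabolism, Slc7a1 (0.883), an arginine and lysine transporter, Cars (0.881), cysteinyl-tRNA synthetase, and Gpt2 (0.880), a mitochondrial alanine transaminase. Stc2 (0.877), a secreted glycoprotein, Aldh18a1 (0.873), of proline synthesis, and Herpud1 (0.866), of degradation at the endoplasmic reticulum (ER), completed the 12. Of these, 7 stand on the list of amino acid response genes, 1 on that of stress response regulators, 1 on that of ER genes, and 3 (Pck2, Hspb6 and Gpt2) on none.

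Trib3, the probe set with the highest r, had 9.35, 9.35 and 9.51 with Loratadine, 9.13, 9.18 and 9.07 with Sulfasalazine and 9.24, 9.09 and 9.17 with Chlorthalidone, against 8.43, 8.53 and 8.45 in DMSO. None of the 9 compound arrays overlapped DMSO, and the log2 fold changes were 0.93, 0.66 and 0.70. Slc6a9 had 10.05, 10.18 and 10.16 with Loratadine against 8.98, 8.98 and 8.91 in DMSO, a log2 fold change of 1.17. Hspb6, at 10.44, 10.54 and 10.49 with Loratadine and 10.21, 10.14 and 10.18 with Glybenclamide against 9.28, 9.25 and 9.24 in DMSO, came nearest to Chac1 in size, with 1.23 and 0.92.

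All 12 were above DMSO in mean with each of the 10 compounds in which Chac1 stood highest, Topiramate excepted, where 11 were. None of the 12 exceeded Chac1 with any of those 10. Their median log2 fold change was 0.82 with Loratadine, 0.62 with Sulfasalazine, 0.62 with Chlorthalidone and 0.44 with Glybenclamide, where Chac1 had 1.55, 1.37, 1.34 and 0.93. With VPA the likeness was looser: 5 of the 12 exceeded the 0.28 of Chac1, among them Slc6a9 (0.50) and Gpt2 (0.49). The 12 were picked for their likeness over these arrays, so their direction is part of the choice.

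**Figure D2:**
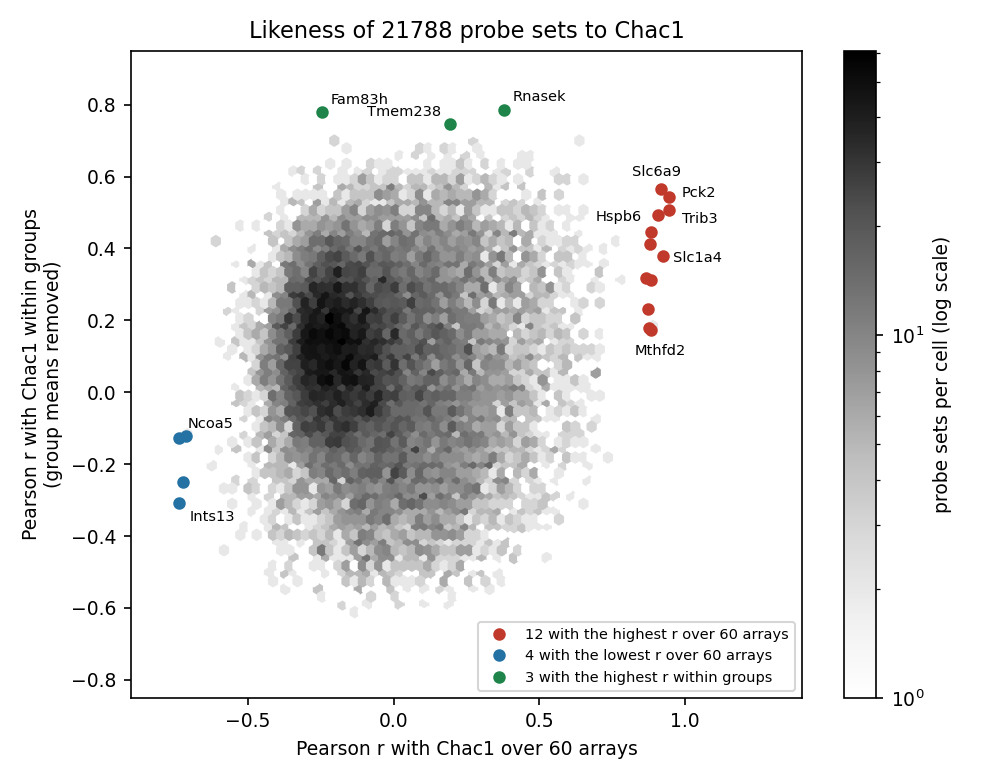
Pearson r of 21788 probe sets with Chac1 over the 60 arrays (x axis) and after removal of group means (y axis); grey cells hold counts on a log scale. Red points are the 12 with the highest r over 60 arrays, blue the 4 with the lowest and green the 3 with the highest r within groups. The red points, from 0.866 to 0.945 on the x axis, spread from 0.173 to 0.566 on the y axis.

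The plot of likeness over arrays and within groups sets both measures side by side. With group means removed, the r of the 12 lay between 0.173 (Mthfd2) and 0.566 (Slc6a9), none was among the 12 highest, and the highest belonged to Rnasek (0.786), Fam83h (0.779) and Tmem238 (0.745), with 0.378, -0.244 and 0.195 over 60 arrays. Leaving out the 3 groups in which Chac1 was 1 or more above DMSO left 51 arrays, 9 of the same 12 among the highest 12, and r of 0.603 to 0.845. The count at 0.7 or more was then 11, not 77. By Spearman's rank correlation, 10 of the 12 were among the highest 12.

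At the other end stood Ncoa5 (r = -0.735), a nuclear receptor coactivator, Ints13 (-0.734), a subunit of the Integrator complex, Fam98a (-0.720) and 9330159F19Rik (-0.710). Ncoa5 was 0.66 below DMSO with Loratadine, 0.25 with Chlorthalidone and 0.18 with Sulfasalazine. Its DMSO signals were 10.30, 10.22 and 10.30. Fewer probe sets mirrored Chac1 than followed it, and less closely.

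**Figure D3:**
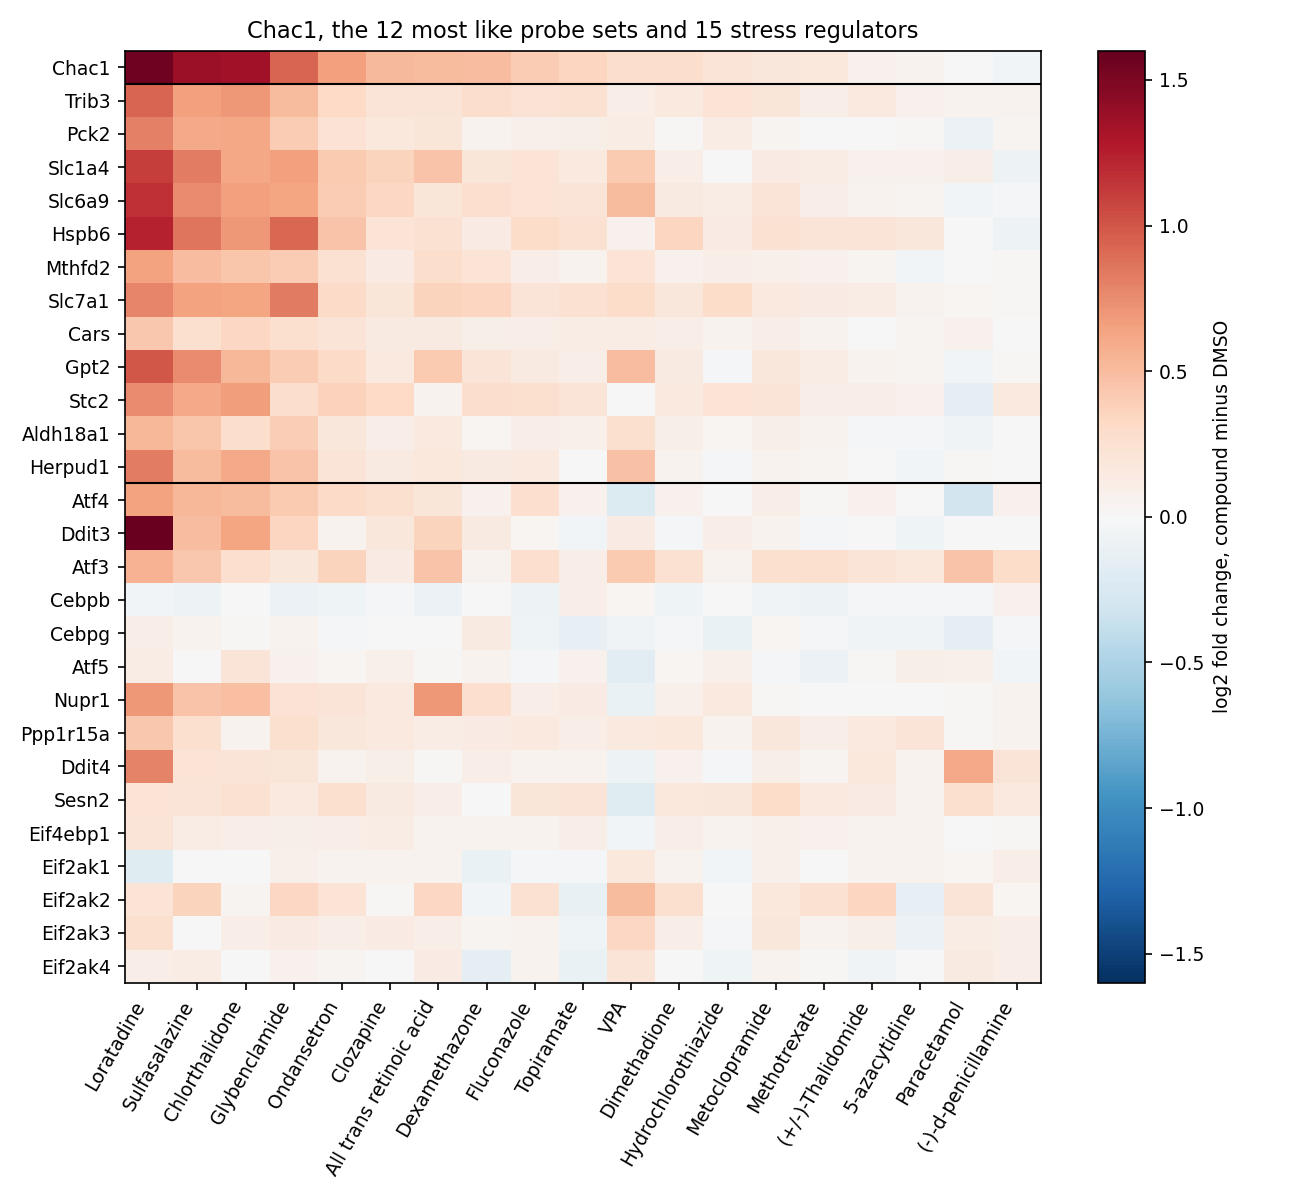
Log2 fold change, compound minus DMSO, of Chac1 (top row), the 12 probe sets most like it and 15 further regulators of the integrated stress response, with compounds ordered by Chac1. Red is higher and blue lower than DMSO; Chac1 and Ddit3 reach 1.55 and 1.58 with Loratadine, while Cebpb, Cebpg and Atf5 stay pale throughout.

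The pathways around Chac1 were then read from 5 gene lists with limma on all 60 arrays, with p-values adjusted by Benjamini and Hochberg within each comparison. A gene rose or fell when its adjusted p was under 0.05. Among all 21789 probe sets 10.9% rose and 8.26% fell with Loratadine, 5.40% and 3.50% with Sulfasalazine, 1.44% and 1.14% with Chlorthalidone, and 6.79% and 2.75% with Glybenclamide. With All trans retinoic acid 5.90% rose and 3.92% fell, with VPA 15.5% and 11.0%, with Paracetamol 4.61% and 4.15%, and with Dexamethazone 1.51% and 4.74%.

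For the compounds with small responses the shares were 1.10% and 0.211% with Clozapine, 0.289% and 0.0413% with Ondansetron, 0.303% and 1.87% with Hydrochlorothiazide, 0.184% and 0.0138% with Metoclopramide and 0.101% and 0.0184% with Dimethadione. In the 6 other comparisons limma made no call. An unadjusted p under 0.05 arises in a part of 21789 tests even without any difference. It was counted for 1850 probe sets with (-)-d-penicillamine, 1658 with (+/-)-Thalidomide, 1757 with 5-azacytidine, 1463 with Fluconazole, 2575 with Topiramate and 1435 with Methotrexate.

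Of 16 regulators of the integrated stress response, 9 rose with Loratadine (56.2%, beside 10.9% of all probe sets) and 1 fell. With Sulfasalazine 7 rose (43.8%, beside 5.40%), with Glybenclamide 6 (37.5%, beside 6.79%) and with All trans retinoic acid 6 (37.5%, beside 5.90%). With Chlorthalidone 4 rose (beside 1.44% of all), and none fell with these last 4 compounds. With VPA 4 rose and 1 fell, with Ondansetron 3 rose, with Dexamethazone 2 rose, with Paracetamol 2 rose and 1 fell, and with Clozapine 1 rose. VPA, where Chac1 was 0.28 above DMSO, thus had as many rises on this list as Chlorthalidone, where Chac1 was 1.34 above. The share of all probe sets that rose was 15.5% with VPA but 1.44% with Chlorthalidone. Beside these shares, the same count of 4 stood out more with Chlorthalidone than with VPA. The list's median log2 fold change was 0.23 with Loratadine, 0.22 with Sulfasalazine and 0.16 with Chlorthalidone, where the median of all probe sets was -0.04, -0.01 and 0.

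Atf4 itself, the central factor, had 9.11, 9.12 and 9.11 with Loratadine, 9.01, 9.03 and 8.98 with Sulfasalazine and 9.04, 8.92 and 8.99 with Chlorthalidone, against 8.45, 8.50 and 8.49 in DMSO. It rose in 7 compounds, by 0.64 with Loratadine (adjusted p = 2.69e-11), 0.53 with Sulfasalazine, 0.51 with Chlorthalidone, 0.42 with Glybenclamide, 0.31 with Ondansetron, 0.26 with Clozapine and 0.19 with All trans retinoic acid (adjusted p = 0.0402). Chac1 in these comparisons, which share their DMSO arrays, stood at 1.55, 1.37, 1.34, 0.93, 0.65, 0.52 and 0.51. Atf4 fell with Paracetamol (log2 fold change -0.30, adjusted p = 0.00056) and with VPA (-0.22, adjusted p = 0.00382), where Chac1 was 0.01 and 0.28 above DMSO. Its r with Chac1 over 60 arrays was 0.856.

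Ddit3, which encodes CHOP, stood apart in Loratadine, with 9.57, 9.81 and 9.89 there, 8.51, 8.81 and 8.67 in Sulfasalazine and 8.91, 8.76 and 8.73 in Chlorthalidone, against 8.14, 8.19 and 8.20 in DMSO. All 9 compound arrays were above DMSO, but the log2 fold change of 1.58 with Loratadine (adjusted p = 1.39e-18) was followed by 0.63 with Chlorthalidone and 0.49 with Sulfasalazine, where Chac1 was nearly as high as with Loratadine. Ddit3 also rose with All trans retinoic acid (0.35) and Glybenclamide (0.34). With Ondansetron, the compound of the fifth highest Chac1, it was 0.06 above DMSO and made no call.

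Atf3, a partner and target of ATF4, rose in 6 compounds, by 0.55 with Loratadine, 0.46 with Paracetamol, 0.45 with All trans retinoic acid, 0.43 with Sulfasalazine, 0.42 with VPA and 0.35 with Ondansetron. With Chlorthalidone it was 0.27 above DMSO, without a call, and its r with Chac1 was 0.389. Nupr1, a stress-induced chromatin cofactor, rose most with All trans retinoic acid (0.70) and Loratadine (0.69). Ddit4, an inhibitor of mTORC1 signalling, rose with Loratadine (0.79) and Paracetamol (0.60) alone among the 19 compounds.

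Of the 4 eIF2 kinases, Eif2ak3 (PERK, of the ER) rose with VPA (0.33) and Loratadine (0.25), Eif2ak2 (PKR) with VPA (0.51), Sulfasalazine (0.35), Glybenclamide (0.33) and All trans retinoic acid (0.33), and Eif2ak4 (GCN2, of amino acid shortage) with VPA (0.20). Eif2ak1 (HRI, of haem shortage) fell with Loratadine (log2 fold change -0.19). Ppp1r15a, the phosphatase subunit that reverses eIF2 phosphorylation, rose with Loratadine (0.43), Sulfasalazine (0.26) and Glybenclamide (0.25), and Eif4ebp1, a translation repressor, with Loratadine (0.21). No compound gave a call for Cebpb, Cebpg, Atf5 or Sesn2. The kinases act through their activity, which these RNA levels do not measure.

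**Figure D4:**
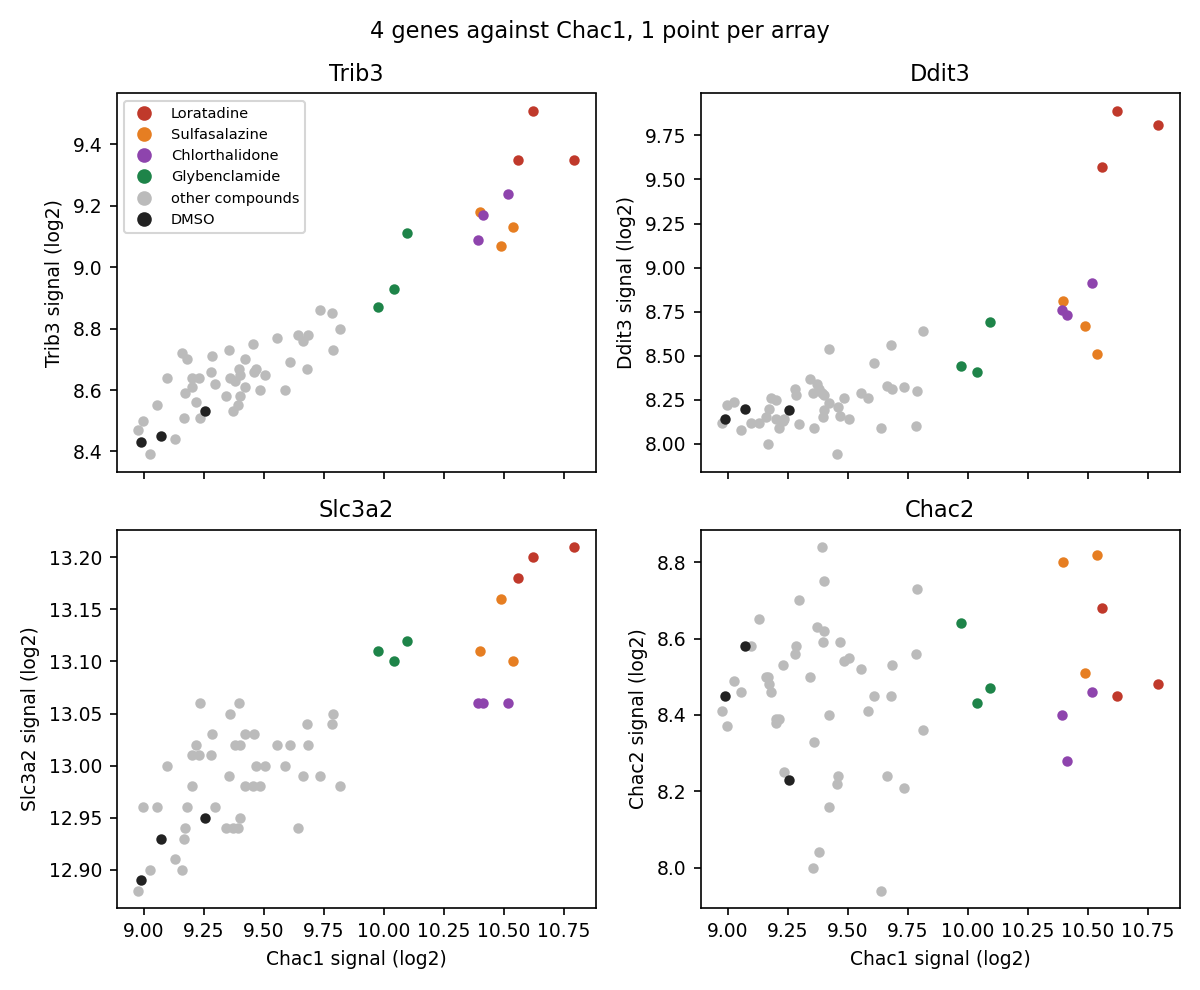
Log2 signals of Trib3, Ddit3, Slc3a2 and Chac2 (y axes) against that of Chac1 (x axis), 1 point per array, with the 4 compounds of highest Chac1 and DMSO coloured. Trib3 climbs with Chac1 (r = 0.945), Ddit3 separates Loratadine from the others, Slc3a2 follows within a narrow range (12.88 to 13.21) and Chac2 shows little relation (r = 0.134).

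Of 23 measured genes for glutathione synthesis, breakdown, reduction and cysteine supply, 5 rose with Loratadine (21.7%, beside 10.9% of all probe sets), 4 with Sulfasalazine (17.4%, beside 5.40%), 4 with Glybenclamide (17.4%, beside 6.79%) and 1 with Chlorthalidone (4.35%, beside 1.44%), and none fell in these comparisons. The largest number, 9 (39.1%, beside 15.5%), rose with VPA. With Paracetamol 3 rose (13.0%, beside 4.61%) and 1 fell (beside 4.15% of all), and with All trans retinoic acid 2 rose (8.7%, beside 5.90%). With Dexamethazone 1 rose (4.35%, beside 1.51%) and 2 fell (beside 4.74% of all), and with Hydrochlorothiazide 1 fell (beside 1.87% of all). The median r of the list with Chac1 was 0.05, beside -0.08 for all probe sets.

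The paralog Chac2 had 8.68, 8.48 and 8.45 with Loratadine, 8.82, 8.80 and 8.51 with Sulfasalazine and 8.46, 8.40 and 8.28 with Chlorthalidone, against 8.45, 8.23 and 8.58 in DMSO. Each of these groups overlapped DMSO. Chac2 rose with VPA (0.32, adjusted p = 0.00972) and fell with Dexamethazone (log2 fold change -0.32, adjusted p = 0.0419), and its r with Chac1 was 0.134, as the plot of 4 genes against Chac1 shows. Ggct, whose enzyme forms 5-oxoproline from gamma-glutamyl amino acids, rose with Sulfasalazine (0.31) only among the 19 compounds.

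On this list 2 of 23 genes, Slc3a2 and Slc7a11, had an r of 0.7 or more with Chac1, beside 77 of 21788 probe sets in all. Slc3a2, the heavy chain of several amino acid exchangers, had 13.18, 13.21 and 13.20 with Loratadine, 13.10, 13.11 and 13.16 with Sulfasalazine and 13.06 on all 3 Chlorthalidone arrays, against 12.89, 12.95 and 12.93 in DMSO. The groups did not overlap, and Slc3a2 rose by 0.27 with Loratadine, 0.19 with Sulfasalazine, 0.18 with Glybenclamide and 0.13 with Chlorthalidone. Its r with Chac1 was 0.829. Slc7a11, the light chain of the cystine exchanger, rose with Loratadine (0.42), Sulfasalazine (0.30), Glybenclamide (0.30) and Dexamethazone (0.28), with r = 0.721. Cth, which makes cysteine from cystathionine, rose with Loratadine (0.45), Sulfasalazine (0.35) and VPA (0.20). Cbs, which makes the cystathionine, rose with Paracetamol (0.37) and VPA (0.35) and was 0.16 above DMSO with Loratadine, without a call.

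Calls for enzymes of glutathione synthesis were spread over other compounds too. Gclc, the catalytic subunit of the first step, rose with VPA (0.50) and Paracetamol (0.31) and was 0.03 below DMSO with Loratadine. Gclm, its modifier subunit, rose with Glybenclamide (0.24), and Gss, glutathione synthetase, with Loratadine (0.26).

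The list also holds peptidases that can cleave cysteinylglycine, a product of CHAC1, or other small peptides. Cndp2 rose with Loratadine (0.25), All trans retinoic acid (0.24), Glybenclamide (0.20) and VPA (0.19). Anpep rose with VPA (0.40) and Paracetamol (0.32) and fell with Hydrochlorothiazide (-0.36) and Dexamethazone (-0.33). Lap3 fell with Paracetamol (-0.16), and Dpep1 had no call. Ggt7, of the gamma-glutamyltransferase family, rose with VPA (0.30). Of the redox enzymes, Txnrd1, a thioredoxin reductase, rose with All trans retinoic acid (0.24) and VPA (0.22), and Glrx, a glutaredoxin, with VPA (0.28). Besides Dpep1, limma made no call in any compound for Oplah, Ggt5, Ggt6, Gsr, Gpx1, Gpx4 or Txn1.

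The amino acid response showed the most calls. Of 26 measured members, which are enzymes, transporters, tRNA synthetases and a few secreted proteins and receptors described as ATF4 targets, 22 rose and 1 fell with Loratadine, 19 rose and 1 fell with Glybenclamide, 15 rose and 1 fell with Sulfasalazine, and 12 rose with Chlorthalidone. These rises were 84.6%, 73.1%, 57.7% and 46.2% of the list in that order, beside 10.9%, 6.79%, 5.40% and 1.44% of all probe sets. All trans retinoic acid and VPA each raised 9 (34.6%, beside 5.90% and 15.5%) and lowered 2. Clozapine raised 4 (15.4%, beside 1.10%), Ondansetron 3 (11.5%, beside 0.289%) and Dexamethazone 3 (11.5%, beside 1.51%). Hydrochlorothiazide raised 1 (3.85%, beside 0.303%), and Paracetamol lowered 2. The share of all probe sets that fell was 4.15% with Paracetamol, 8.26% with Loratadine, 2.75% with Glybenclamide and 3.50% with Sulfasalazine. It was 3.92% with All trans retinoic acid and 11.0% with VPA. The list's median log2 fold change was 0.34 with Loratadine, 0.23 with Glybenclamide, 0.21 with Sulfasalazine and 0.17 with Chlorthalidone. Its median r with Chac1 was 0.69, beside -0.08 for all probe sets. At 0.7 or more were 13 of 26 members, beside 77 of 21788 probe sets in all. With group means removed the list's median r was 0.08, beside 0.09 for all probe sets. Without Loratadine, Sulfasalazine and Chlorthalidone it was 0.56, beside -0.06.

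Slc6a9, Slc1a4, Slc7a1 and Stc2 had the largest changes of the list with Loratadine, at 1.17, 1.10, 0.78 and 0.76. Slc38a2, a transporter of small neutral amino acids, went the other way: it fell with Loratadine (log2 fold change -0.22, adjusted p = 1.77e-05), Glybenclamide (-0.18), Sulfasalazine (-0.16), All trans retinoic acid (-0.22) and VPA (-0.28). Slc7a3, a cationic amino acid transporter, fell with VPA (-0.62), All trans retinoic acid (-0.41) and Paracetamol (-0.20). The list was chosen with earlier results of these data known, and 7 of its members are among the 12 probe sets picked for likeness.

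**Figure D5:**
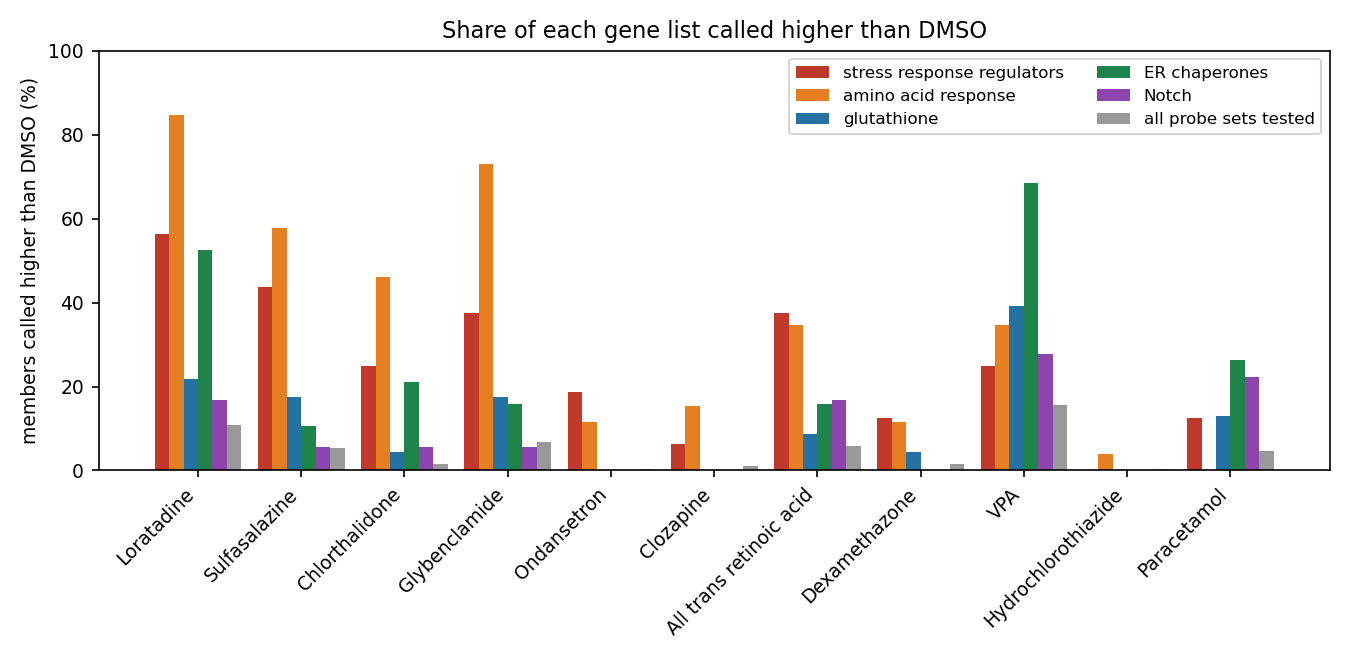
Percentage of the measured members of 5 gene lists that rose relative to DMSO (adjusted p under 0.05) in 11 compounds, ordered by Chac1; grey bars are all 21789 probe sets. With Loratadine 22 of 26 amino acid response genes and 9 of 16 stress response regulators rose, beside 10.9% of all probe sets; with VPA the tallest bar is that of the ER chaperones, 13 of 19.

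In the plot of list shares, the shares of ER genes that rose were ordered otherwise than Chac1, as were the shares of all probe sets. Of 19 chaperones and degradation factors, 13 rose with VPA (68.4%, beside 15.5% of all probe sets). Loratadine raised 10 (52.6%, beside 10.9%) and lowered 2. Paracetamol raised 5 (26.3%, beside 4.61%), Chlorthalidone 4 (21.1%, beside 1.44%) and Glybenclamide 3 (15.8%, beside 6.79%). All trans retinoic acid raised 3 (15.8%, beside 5.90%), and Sulfasalazine raised 2 (10.5%, beside 5.40%) and lowered 1. With Dexamethazone 6 fell and none rose. The share of all probe sets that fell was 4.74% with Dexamethazone, 8.26% with Loratadine and 3.50% with Sulfasalazine. Derl3, of ER-associated degradation, rose with Loratadine (0.99, adjusted p = 6.03e-12), VPA (0.78), Glybenclamide (0.62), Chlorthalidone (0.56) and Paracetamol (0.35), was 0.26 above DMSO with Sulfasalazine without a call, and fell with Dexamethazone (log2 fold change -0.33).

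Herpud1, which was also picked for its likeness to Chac1, was above DMSO by 0.82 with Loratadine, 0.60 with Chlorthalidone, 0.50 with Sulfasalazine, 0.47 with VPA and 0.46 with Glybenclamide. Sdf2l1, an ER chaperone cofactor, rose with VPA (0.51), Loratadine (0.44), Paracetamol (0.35) and Chlorthalidone (0.20), and the sensor Atf6 with Loratadine (0.40), VPA (0.32) and Sulfasalazine (0.31). Sel1l, of the degradation complex, fell with Loratadine (-0.22) and Sulfasalazine (-0.19). Hyou1, a large chaperone, fell with Loratadine (-0.18). The list's median log2 fold change with Sulfasalazine was 0, where Chac1 had its second highest level.

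Of 18 Notch genes Loratadine raised 3 (16.7%, beside 10.9% of all probe sets) and lowered 4. Sulfasalazine raised 1 (5.56%, beside 5.40%) and lowered 2, and Chlorthalidone raised 1 (5.56%, beside 1.44%) and lowered 0. Glybenclamide raised 1 (5.56%, beside 6.79%) and lowered 1, and All trans retinoic acid raised 3 (16.7%, beside 5.90%) and lowered 3. VPA raised 5 (27.8%, beside 15.5%) and lowered 6, and Paracetamol raised 4 (22.2%, beside 4.61%) and lowered 1. Dexamethazone lowered 2 and Hydrochlorothiazide 1. The share of all probe sets that fell was 8.26% with Loratadine, 3.50% with Sulfasalazine, 1.14% with Chlorthalidone and 2.75% with Glybenclamide. It was 3.92% with All trans retinoic acid, 11.0% with VPA, 4.15% with Paracetamol, 4.74% with Dexamethazone and 1.87% with Hydrochlorothiazide. The ligand Jag1 fell with VPA (-0.63), All trans retinoic acid (-0.43), Loratadine (-0.40), Dexamethazone (-0.22) and Sulfasalazine (-0.20). With Loratadine the genes that rose were Dtx1 (0.32, adjusted p = 0.000511), an E3 ligase of the pathway, the ligand Dll1 (0.29) and the target Hes1 (0.16, adjusted p = 0.0494). The ligand Jag2 was 0.18 above DMSO there without a call, and the target Hey1 fell (-0.22). No member of the list reached an r of 0.7 with Chac1, which 77 of 21788 probe sets did in all. The median r was -0.12, beside -0.08 for all probe sets. With group means removed it was 0.29, beside 0.09. Protein processing of Notch, on which CHAC1 is said to act, is outside what these arrays measure.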

How the data were processed

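Each probe set has 1 deposited log2 signal per array. Per the submitters' processing notes the authors obtained these values with RMA, which turns the probes of a set into a single value; its version is not given in the sources used here. In all, the annotation lists 23410 of the 35556 probe sets: 21789 with 1 gene symbol (19938 symbols), which were tested, 1621 with several, and none for 12146. Arrays have no read depth; the 3 arrays per group limit the precision.

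The log2 values were used as deposited. A mean per group was fitted to all 60 arrays with lmFit and default eBayes of limma (version 3.58.1, under R 4.3.3), which left 40 residual degrees of freedom and added 7.31 of prior. Each compound was contrasted with DMSO, and p-values, all adjusted by Benjamini and Hochberg within a contrast over 21789 probe sets, measure the spread between arrays, which may be technical. Correlations were computed in Python 3.11.15 (numpy 2.4.6, pandas 2.3.3, scipy 1.17.1). The scripts were checked on simulated data.

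Chac1 and the gene lists were chosen with earlier results of these data known. Symbols of the lists were matched to the arrays by current and older names, and where a gene had several probe sets the brightest was used. Promoters were looked up by the array's symbol only, so a gene filed under another name counted as without a promoter. Named are Chac1, the 12 highest and 4 lowest probe sets by r, the 3 highest within groups, all stress response regulators and glutathione genes, and of the other lists the 4 highest and 2 lowest members with Loratadine. Alternatives were quantile normalisation, the letter b or the array's interquartile range as a covariate, leaving out each array in turn, dim probe sets left out, all probe sets tested, a model of 6 arrays, eBayes with trend and robust settings, and other measures of likeness. Arrays with the letter b left out, and the motif TGACGNAA, were added after seeing the data.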

Additional observations from a re-analysis of the deposited data

How the results depend on the processing

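The log2 fold change of Chac1 moved by more than its SD within groups (0.104) in 5 recomputations and by less in 185. With the letter b as a covariate it was 0.20 for (+/-)-Thalidomide (0.07 without) and 0.53 for Fluconazole (0.41 without). With the b arrays left out, a choice made after seeing the data, it was 0.64 for All trans retinoic acid (0.51 with them). Leaving out 1 array at a time gave 0.41 to 0.64 for All trans retinoic acid (0.64 without its replicate 2), 0.07 to 0.25 for Methotrexate (0.07 without its replicate 3), and 1.49 to 1.63 for Loratadine.

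Counts of list members that rose over all 19 compounds stayed within 1.5 times their value under every alternative. Counts of those that fell, which are small, did not. Falls of glutathione genes (4) became 2 after quantile normalisation, 2 with the interquartile range as covariate and 0 in models of 6 arrays, and 0 to 5 with 1 array left out. Falls of ER genes (9) became 3 with the interquartile range, 14 without dim probe sets and 1 in models of 6 arrays, and 4 to 14 with 1 array left out. In models of 6 arrays, falls of amino acid response genes were 4 (9 in the model of all arrays) and of Notch genes 11 (20). Those models have fewer residual degrees of freedom; for the other settings the cause was not tested.

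The number of probe sets with r of 0.7 or more to Chac1 (77) became 33 by Spearman's rho, 255 over 20 group means, 21 within groups, 28 without Loratadine and 11 without Loratadine, Sulfasalazine and Chlorthalidone. At -0.7 or less (7) it became 3, 67, 0, 0 and 0 in the same order, and 17 after quantile normalisation. No paired analysis was possible because the labels give no replicate numbers; those used here follow the order of deposit.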
